A study of Mus musculus with 26 samples.

Results

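Semaphorins are secreted or membrane-bound guidance cues, and neuropilins and plexins are the receptors that read them on axons and migrating cells. The account below covers 10 genes of this system, chosen by name with earlier results of these data known. They are the ligands Sema3a, Sema3c, Sema3e and Sema6d, the coreceptors Nrp1 and Nrp2, and the receptors Plxna2, Plxna4, Plxnd1 and Plxnb2. All 10 were among the 30406 genes listed in every one of the 8 cortex libraries, and 5 of them (Nrp1 and the 4 plexins) were also followed in 18 libraries of sorted microglia.

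The nuclei came from the somatosensory cortex of male mouse embryos at E15.5, after maternal immune activation (MIA) with the viral mimic Poly(I:C) or a saline injection at E12.5. The 4 groups of 2 libraries each were wild-type saline, wild-type MIA, Csf1r-null saline and Csf1r-null MIA. The Csf1r-null line lacks the receptor in the whole body, on a C57Bl/6N background, and the wild types were littermates. A library held 1 or 2 embryos, and 4 dams gave all 8 libraries, so p-values measure the spread between libraries that may share a dam. The sorted microglia were wild-type, Cd11b+, Cx3cr1+ and Cd45low, with 3 saline and 3 MIA libraries at E13 and at E15, each from pooled embryos of both sexes. At P14 there were 4 saline and 2 MIA libraries, labelled as of mixed sex except saline replicates 3F (female) and 3M (male), while the study describes single mice, so how many mice a P14 library held is uncertain. Nothing in the labels says that libraries of different ages came from the same litters.

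As background, class 3 semaphorins are secreted. Most of them bind a neuropilin, which has no signalling domain of its own and passes the signal on through an A-type plexin. Sema3a is the classical Nrp1 ligand and acts through Plxna4 and other A plexins, Sema3c binds both neuropilins, and Sema3e can bind Plxnd1 without a neuropilin. Sema6d spans the membrane, and Plxnb2 is a receptor for class 4 semaphorins. In the developing cortex, Sema3a guides radial migration and the orientation of axons and dendrites, and Nrp1 is known for its part in callosal axon growth.

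Promoters are shown for 3 members with different patterns: Sema6d, highest among the tested classes in migrating neurons, Sema3e, highest in dividing and intermediate progenitors, and Plxnd1, highest in Cajal-Retzius cells, a class too small for the tests. They are the 250 bases before the annotated start in RefSeq, on build GRCm38.p6. Capitals mark the E-box core CANNTG, the motif that basic helix-loop-helix factors such as the neurogenins bind, searched on both strands. Of the members, 9 had a promoter entry, and Plxna4 is named only. Sema6d starts at position 124089969 on chromosome 2, on the plus strand, and its window is chr2:124089719-124089968. Another Sema6d entry, with the window chr2:124653331-124653580 and 2 matches to the core, is not shown. Sema3e starts at 14025276 on chromosome 5, on the plus strand, with the window chr5:14025026-14025275. Plxnd1 starts at 115995005 on chromosome 6, on the minus strand, with the window chr6:115995006-115995255.
Sema6d: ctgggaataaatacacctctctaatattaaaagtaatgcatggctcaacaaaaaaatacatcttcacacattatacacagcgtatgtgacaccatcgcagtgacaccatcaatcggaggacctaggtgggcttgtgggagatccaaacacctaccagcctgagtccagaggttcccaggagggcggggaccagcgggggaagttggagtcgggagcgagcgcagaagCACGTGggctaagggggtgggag
Sema3e: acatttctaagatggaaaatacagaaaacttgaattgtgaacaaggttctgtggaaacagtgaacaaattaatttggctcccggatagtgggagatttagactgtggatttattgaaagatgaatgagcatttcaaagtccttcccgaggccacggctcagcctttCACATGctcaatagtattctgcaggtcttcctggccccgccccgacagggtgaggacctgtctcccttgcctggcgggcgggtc
Plxnd1: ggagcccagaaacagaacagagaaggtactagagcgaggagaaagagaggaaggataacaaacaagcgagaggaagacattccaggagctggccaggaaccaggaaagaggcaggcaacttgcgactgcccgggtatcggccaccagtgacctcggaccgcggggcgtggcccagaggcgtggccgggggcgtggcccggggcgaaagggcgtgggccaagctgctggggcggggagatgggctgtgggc
The core occurred 1 time in the Sema6d window shown, 1 time in the Sema3e window and 0 times in the Plxnd1 window. It is common: 66.2% of 32851 promoter windows of this length held at least 1. The specific forms CAGATG (14.4% of windows) and CAGCTG (13%) did not occur in these windows. These matches describe the letters only.

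The nuclei libraries held 9897721 to 17605575 unique molecular identifiers (UMIs, each standing for 1 captured RNA molecule) in 4552 to 6198 nuclei, with 0 to 14 barcodes shared between any pair of libraries. After 1917 predicted doublets were removed, 41539 nuclei fell into 12 clusters, which were named from marker genes that include no semaphorin, neuropilin or plexin. The labels were checked against microglial markers, since Csf1r-null embryos lack microglia. Csf1r was at 0 UMIs in the wild-type MIA library labelled replicate 2, where the 12 microglial markers summed to 4.96 CPM (UMIs scaled to a common total per library or class) and 7 of them were at 0. Csf1r had 10 UMIs in the Csf1r-null saline library labelled replicate 2, where the markers summed to 22.03 CPM and 0 of 12 were at 0. The other wild-type libraries had 11 to 23 Csf1r UMIs and 21.1 to 40.5 CPM, and the other Csf1r-null libraries had 1 to 4 UMIs and 4.57 to 7.35 CPM. Both libraries thus go against their labels. They were kept under these labels, and some of the results are also given without both. Another library stood apart in another way: wild-type saline replicate 1 held 678 of the 710 nuclei of a striatal-like cluster, and its interneuron markers summed to 1132 CPM against 237 to 379 CPM in the other libraries.

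Levels were compared between classes within each library, in 8 classes with at least 20 nuclei in every library: apical progenitors (AP), dividing progenitors, intermediate progenitors (IP), migrating neurons, callosal projection neurons (CPN), interneurons and a pair of deep-layer neuron clusters. The latter are called deep-layer cluster 1 and deep-layer cluster 9, since neither could be named. In cluster 1 the corticothalamic markers scored highest, 3.53 log2 units on average and all 7 detected, but 0 of them were among its top 10 genes by fold, where 1 marker of another class stood. In cluster 9 the corticothalamic (2.097) and subcerebral (1.727) markers scored close to each other. Migrating neurons had the highest mean level of 6 members in every setting tried: Nrp1, Nrp2, Plxna2, Plxna4, Sema3c and Sema6d. Classes that were neighbours in a gene's order were compared by a two-sided exact sign-flip permutation test over the 8 libraries, and 23 of 70 neighbouring pairs differed after Benjamini-Hochberg adjustment over all 70. Adjusted p was 0.026 for each of the 21 pairs with the smallest p the design allows, 0.00781, and 0.0476 for the other 2. All 23 differences kept their direction when any single library, or both libraries that go against their labels, were left out. With 7 libraries the smallest possible p is 0.0156, and with 6 it is 0.0312, and the pairs that passed the adjustment numbered 0 to 28 with 7 libraries and 0 with 6.

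**Figure D1:**
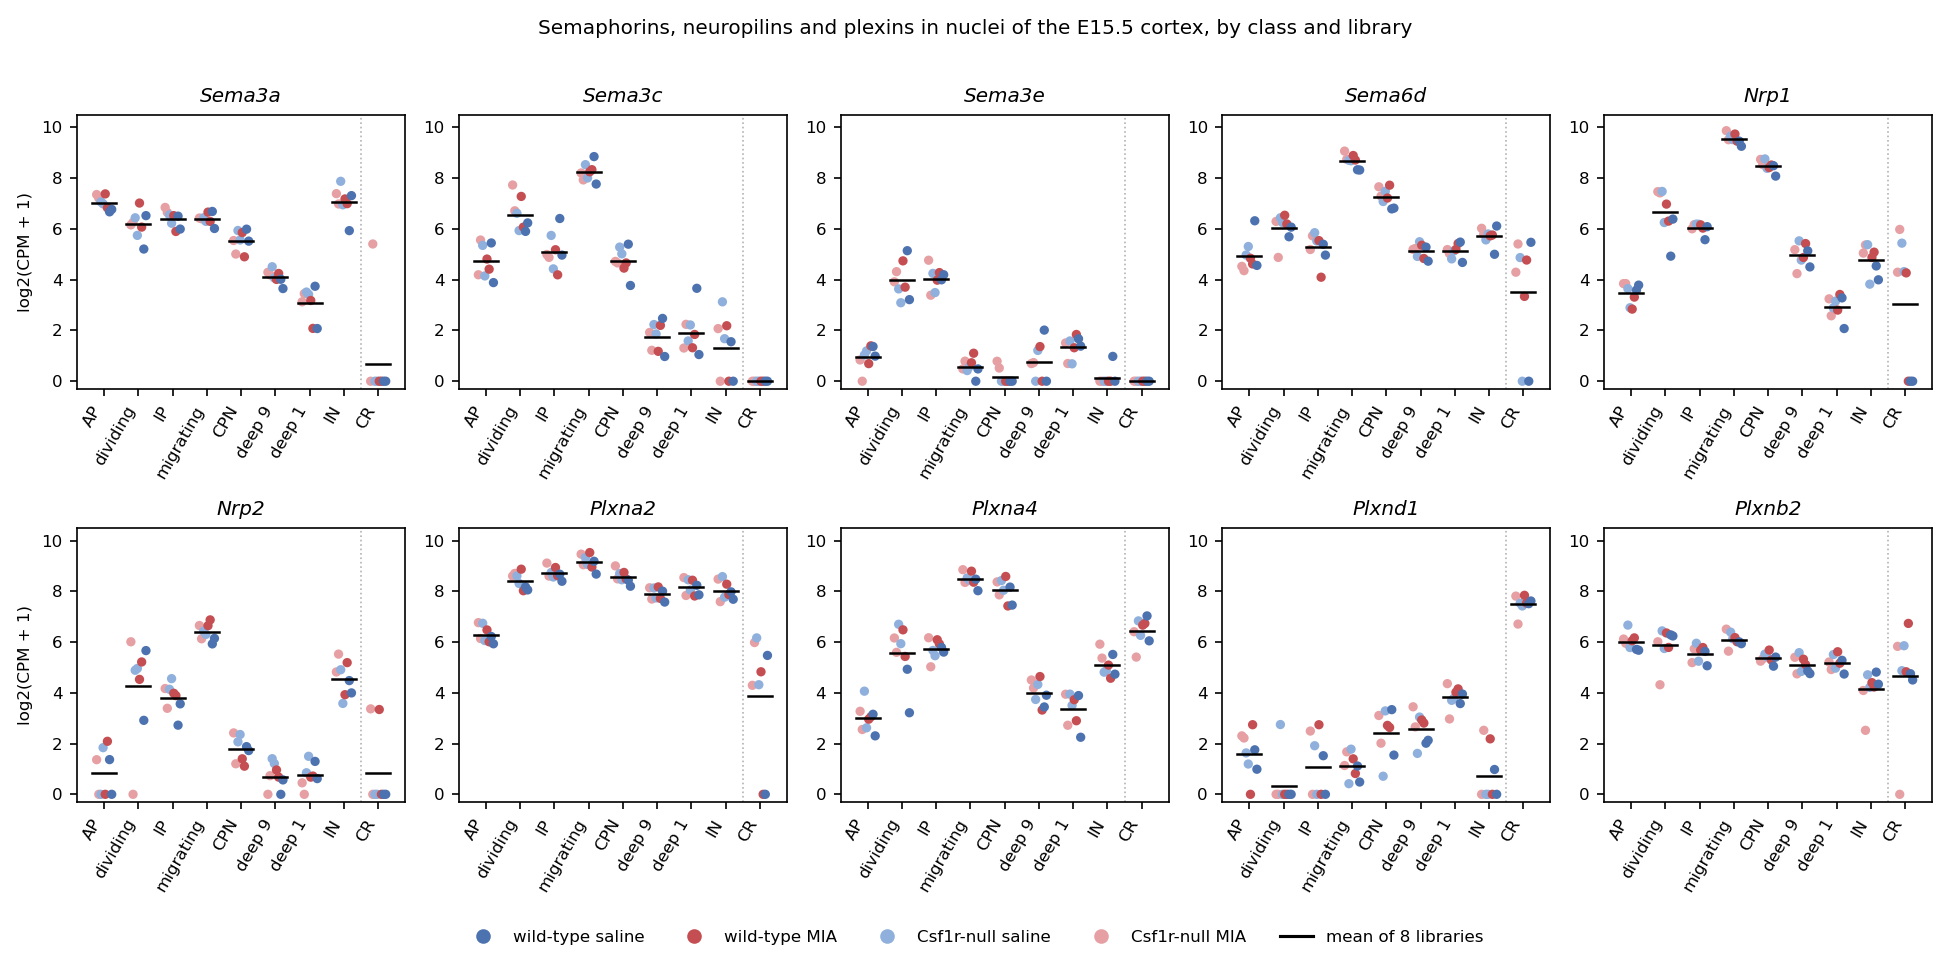
Level of each member, as log2(CPM + 1), by class of nuclei (AP, apical progenitors, IP, intermediate progenitors, CPN, callosal projection neurons, deep 1 and deep 9, the deep-layer clusters, IN, interneurons, CR, Cajal-Retzius cells). Each point is 1 of 8 libraries and each bar their mean, and classes right of the dotted line have too few nuclei for a test. Among the tested classes Nrp1, Plxna4, Sema3c and Sema6d peak in migrating neurons, and Plxnd1 reaches a mean of 184 CPM in Cajal-Retzius cells.

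Nrp1, the coreceptor for Sema3a, ranged between class means of 6.93 and 761 CPM. In migrating neurons it measured 705 and 612 CPM in wild-type saline, 855 and 704 in wild-type MIA, 808 and 734 in Csf1r-null saline and 937 and 732 in Csf1r-null MIA (replicates 1 and 2). The mean of 761 ± 102 CPM (SD, n = 8) was 1.07 log2 units above that of CPN (363 ± 52.0 CPM), and no migrating-neuron value overlapped a CPN value. CPN in turn lay 1.84 log2 units above dividing progenitors (114 ± 56.2 CPM). IP (65.9 ± 8.44 CPM) did not differ from dividing progenitors beyond the spread. Deep-layer cluster 9 followed with 31.4 ± 9.55 CPM and interneurons with 28.1 ± 10.53 CPM. The lowest levels were 10.47 ± 2.95 CPM in AP and 6.93 ± 2.18 CPM in deep-layer cluster 1, which did not differ from each other (adjusted p = 0.149, exact sign-flip permutation test).

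Nrp2, the other neuropilin, was also highest in migrating neurons, with 59.9 and 69.9 CPM in wild-type saline, 99.2 and 116 in wild-type MIA, 85.3 and 77.9 in Csf1r-null saline and 99.7 and 69.0 in Csf1r-null MIA. The mean was 84.7 ± 19.2 CPM, 1.83 log2 units above interneurons (24.8 ± 11.7 CPM). Interneurons, dividing progenitors (29.6 ± 20.9 CPM, from 40 UMIs in all) and IP (13.8 ± 5.22 CPM) did not differ as neighbours. Below IP the level dropped by 2.03 log2 units to CPN, where Nrp2 averaged 2.59 ± 1.23 CPM. CPN were thus the class next to the top for Nrp1, and held little Nrp2.

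Among the plexins, Plxna2, an A-type receptor, was expressed across all tested classes. Migrating neurons had 581 and 409 CPM in wild-type saline, 737 and 496 in wild-type MIA, 644 and 533 in Csf1r-null saline and 706 and 529 in Csf1r-null MIA, with replicate 1 above replicate 2 in each group. The mean of 579 ± 111 CPM exceeded that of IP (421 ± 69.1 CPM) by 0.45 log2 units, and IP exceeded CPN (383 ± 66.9 CPM) by 0.14, a small difference that held its direction in 8 of 8 libraries. Its lowest level among the tested classes, 79.3 ± 19.0 CPM in AP, was 1.60 log2 units below the next class.

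Plxna4, the A-type plexin that Sema3a signals through with Nrp1, was highest in migrating neurons and CPN. In migrating neurons it reached 356 and 259 CPM in wild-type saline, 443 and 327 in wild-type MIA, 368 and 347 in Csf1r-null saline and 461 and 326 in Csf1r-null MIA. CPN (273 ± 77.9 CPM) lay 0.44 log2 units lower than migrating neurons (361 ± 65.2 CPM), and IP (53.1 ± 12.9 CPM) another 2.32 log2 units lower. AP had 7.55 ± 3.68 CPM and deep-layer cluster 1 had 10.1 ± 4.31 CPM, which did not differ (adjusted p = 0.193, exact sign-flip permutation test). Nrp1 and Plxna4 thus shared their highest 2 classes and their lowest 2.

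Plxnd1, the Sema3e receptor, was low in all tested classes. Deep-layer cluster 1 was highest, with 10.9 and 14.5 CPM in wild-type saline, 15.2 and 16.8 in wild-type MIA, 12.03 and 12.8 in Csf1r-null saline and 19.6 and 6.84 in Csf1r-null MIA. This mean of 13.6 ± 3.88 CPM was 1.24 log2 units above deep-layer cluster 9 (5.45 ± 2.58 CPM), and no other neighbours differed. Cajal-Retzius cells, early-born neurons of the cortical surface that secrete reelin, held far more. With 136 nuclei, 9 to 23 per library, they were too few for the test, and Plxnd1 measured 182, 196, 229, 185, 184, 171, 224 and 104 CPM in their 8 libraries (99 UMIs in all). Plxna4 averaged 89.5 ± 28.5 CPM in the same cells. The Plxnd1 range of 104 to 229 CPM did not overlap the 6.84 to 19.6 CPM of deep-layer cluster 1. A cluster of 156 nuclei that mixes microglial and pericyte markers, also too small for the test, averaged 54.1 ± 51.5 CPM of Plxnd1, from 14 UMIs.

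Plxnb2, the class 4 semaphorin receptor, showed the flattest profile. It had 63.4 and 60.3 CPM in migrating neurons of wild-type saline, 71.4 and 63.6 in wild-type MIA, 83.0 and 69.1 in Csf1r-null saline and 90.1 and 48.9 in Csf1r-null MIA. Migrating neurons (68.7 ± 13.02 CPM), AP (65.3 ± 16.3 CPM) and dividing progenitors (63.5 ± 21.7 CPM) did not differ as neighbours. The 1 step that passed was the last, from deep-layer cluster 9 (33.6 ± 7.999 CPM) to interneurons (18.5 ± 6.76 CPM), 0.91 log2 units.

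Of the ligands, Sema3a was highest in interneurons and AP. Interneurons had 60.2 and 158 CPM in wild-type saline, 144 and 127 in wild-type MIA, 234 and 123 in Csf1r-null saline and 167 and 126 in Csf1r-null MIA. The lowest of these values came from wild-type saline replicate 1, where 9 striatal-like markers summed to 272 CPM within the interneuron class, against 50.4 to 87.8 CPM in the other libraries. Their part in the level was not tested. Interneurons (142 ± 49.2 CPM) and AP (132 ± 24.6 CPM) did not differ, and AP exceeded migrating neurons (84.7 ± 12.49 CPM) by 0.63 log2 units. The steps from CPN (47.2 ± 12.6 CPM) to deep-layer cluster 9 (16.7 ± 3.01 CPM) and on to deep-layer cluster 1 (8.10 ± 3.33 CPM) measured 1.42 and 1.05 log2 units, and both held in 8 of 8 libraries.

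Sema3c, a ligand of both neuropilins, marked migrating neurons. They held 461 and 218 CPM in wild-type saline, 304 and 322 in wild-type MIA, 370 and 257 in Csf1r-null saline and 295 and 244 in Csf1r-null MIA. The mean of 309 ± 78.1 CPM lay 1.67 log2 units above dividing progenitors (104 ± 54.1 CPM), which lay 1.46 above IP (37.5 ± 21.7 CPM). AP (28.0 ± 13.1 CPM) was 2.82 log2 units above deep-layer cluster 1, and the deep-layer clusters and interneurons had 2.33 to 3.46 CPM on average.

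Sema3e, the Plxnd1 ligand, was highest in dividing progenitors and IP, at low counts. Dividing progenitors had 34.4 and 8.29 CPM in wild-type saline, 25.8 and 12.1 in wild-type MIA, 11.5 and 7.53 in Csf1r-null saline and 14.1 and 18.9 in Csf1r-null MIA, from 38 UMIs in all. Of these, 21 came from wild-type saline replicate 1, whose dividing nuclei held 3073 CPM of interneuron markers against 12.1 to 369 CPM elsewhere, and 1 to 7 from each of the others. Interneurons, a separate class, averaged 0.121 CPM of Sema3e. The part of nuclei with interneuron markers in the level of dividing progenitors was not tested. IP had 15.0 and 17.3, 14.8 and 18.4, 18.01 and 10.3, and 26.3 and 9.48 CPM in the same groups, from 86 UMIs. These classes did not differ from each other (16.6 ± 9.34 and 16.2 ± 5.27 CPM), and dividing progenitors lay 2.64 log2 units above deep-layer cluster 1, where Sema3e averaged 1.62 ± 0.706 CPM. All remaining classes had means below 1 CPM, AP included (0.992 ± 0.536 CPM, from 9 UMIs). The class with most Sema3e and the class with most Plxnd1 were therefore different ones.

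Sema6d, the membrane-bound ligand, had 322 and 319 CPM in migrating neurons of wild-type saline, 475 and 420 in wild-type MIA, 417 and 411 in Csf1r-null saline and 536 and 429 in Csf1r-null MIA. Its mean of 416 ± 72.1 CPM exceeded CPN (156 ± 38.1 CPM) by 1.42 log2 units, and CPN exceeded dividing progenitors (68.6 ± 20.5 CPM) by 1.21. The other tested classes followed between 53.1 CPM (interneurons) and 33.0 CPM (AP) with no step beyond the spread. The cluster of 156 nuclei that mixes microglial and pericyte markers also held 499 ± 116 CPM of Sema6d, from 123 UMIs. Over its 8 libraries, Csf1r-null ones included, the level was 370 to 700 CPM. Sorted E15 microglia held 1.58 to 2.40 CPM after saline and 1.42 to 2.85 CPM after MIA. Which cells of the cluster hold Sema6d was not tested.

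The migrating class joined a pair of clusters, and the members differed between them within each library. Cluster 5, in which CPN markers scored second, held 57.95% to 69.1% of the class in each library, and cluster 2, in which IP markers scored second, held the rest. Nrp1 was 0.79 ± 0.08 log2 units (SD, n = 8) higher in cluster 5, Sema6d 0.69 ± 0.29 and Plxna4 0.41 ± 0.15, each in 8 of 8 libraries. Nrp2 was lower in cluster 5 by a difference of -1.37 ± 0.33 log2 units and Sema3a by -1.19 ± 0.18, again in 8 of 8, and Sema3c by -0.31 ± 0.16. The mean level of Nrp2 was 137 CPM in cluster 2 and 53.6 CPM in cluster 5, while that of Nrp1 was 521 and 903 CPM. Plxna2 differed by 0.06 ± 0.05. These within-class values are descriptive, since the clusters were looked at after the levels were known.

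**Figure D2:**
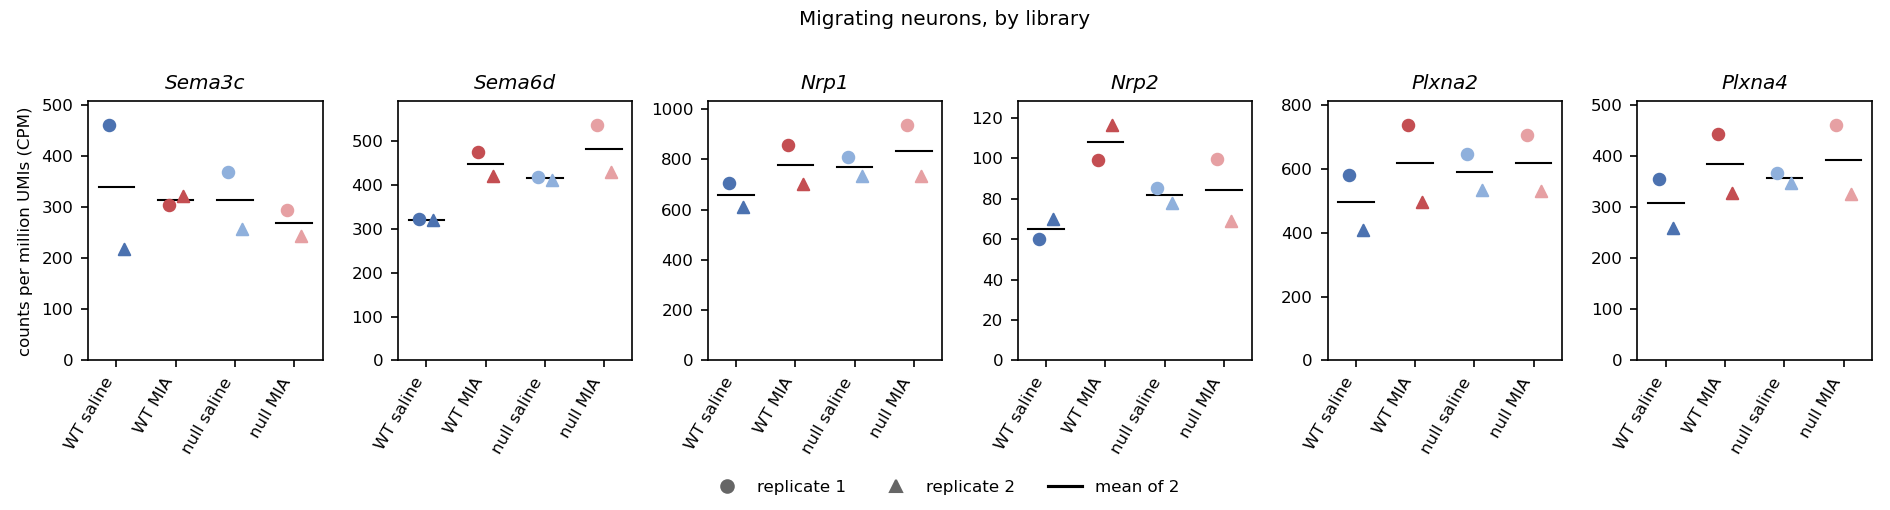
CPM in migrating neurons by group (WT, wild type, null, Csf1r-null) for the 6 members highest in this class, with circles for replicate 1, triangles for replicate 2 and bars for the mean of 2. Nrp2 sits at 59.9 and 69.9 CPM in wild-type saline and at 99.2 and 116 CPM in wild-type MIA, and Plxna2 is higher in replicate 1 than in replicate 2 of every group.

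Genes with the most similar order of class means were sought among 7805 genes outside these families, by the Pearson correlation over the 8 class means, which come from the same libraries. The closest was Brsk2, a polarity kinase of neurons, to Plxna2 (r = 0.994). Plxna4 was closest to Robo2, a Slit receptor (r = 0.964), and to Ptprs, a receptor phosphatase (r = 0.95), which was also second for Nrp1 (r = 0.971) after Banp (0.972). Sema6d was closest to Fam96b (r = 0.97) and Ndst3 (0.963), Sema3c to Fzd1, a Wnt receptor (0.974), and Osbp (0.96), and Sema3a to Acot8 (0.975) and Purg (0.968). Sema3e was closest to Tmem2 (0.959) and Coro1c (0.948), Nrp2 to Pam (0.923) and Snrnp70 (0.915), Plxnd1 to Chst2 (0.975) and Camkv (0.974), and Plxnb2 to Meis2 (0.958) and 2700033N17Rik (0.948). With 8 points each, these are descriptions.

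The other 21 semaphorins and plexins showed other class preferences. In IP, Sema5a (378 ± 74.8 CPM), Plxnb1 (119 ± 23.3 CPM) and Sema4b (84.3 ± 14.7 CPM) had their highest means. Deep-layer cluster 1 was highest for 8 genes: Sema4g (161 ± 21.2 CPM), Plxna3 (95.3 ± 15.9), Plxna1 (73.9 ± 14.5), Sema4c (72.8 ± 11.4), Sema3f (66.6 ± 10.4), Sema4d (44.7 ± 9.16), Sema6b (23.9 ± 3.09) and Sema4f (20.2 ± 5.08). AP were highest for Sema5b (128 ± 20.1 CPM) and Plxnc1 (30.01 ± 11.2), interneurons for Sema6c (119 ± 16.3), Sema6a (114 ± 33.7) and Sema4a (17.0 ± 5.43), and deep-layer cluster 9 for Sema7a (50.1 ± 8.33). Migrating neurons, among the tested classes the leading one of 7 members, were highest for none of these 21. For Plxnb2, 1 of the 7, they did not differ from AP. The members and this list were chosen with earlier results of these data known. No share of all genes is set beside these counts, so they are descriptions. Sema3b, Sema3d, Sema3g and Plxnb3 did not reach 10 CPM in any class.

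The question put to the groups was whether MIA changes gene expression in cortical cells and whether Csf1r-null embryos respond alike. A gene was called at an adjusted p under 0.05 in edgeR's quasi-likelihood test on UMIs summed per library and class. The members entered 60 tests per comparison, since those with few UMIs in a class were filtered out: Sema3a, Sema6d, Nrp1, Plxna2 and Plxnb2 were tested in 8 classes, Plxna4 in 7, Sema3c in 5, Nrp2 in 4, Plxnd1 in 3 and Sema3e in IP alone.

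In wild type, MIA against saline called 0 of 60 member tests, beside 0.0% of 76137 gene tests over all classes. With the replicate number as a block 0 members and 0.536% of all tests were called, and with DESeq2 0 members and 0.11%. At an unadjusted p under 0.05 there were 7 member tests (11.7%) beside 5.93% of all, and with the block 15.0% beside 10.9%. The median log2 fold change of the members was 0.22, beside 0.01 for the median of the class medians of all genes. With the block, the smallest p was that of Sema3c in IP (0.00104 by edgeR), and the smallest adjusted p of any member test was 0.107. Without the block, Nrp2 in migrating neurons had the smallest p by edgeR. Its values of 59.9 and 69.9 CPM after saline lay below the 99.2 and 116 CPM after MIA, a log2 fold change of 0.66 (SE 0.21, edgeR adjusted p = 0.614, and 0.142 with the block). Without both libraries that go against their labels the value was 0.52 (adjusted p = 0.936 by edgeR). Sema6d in the same class had a log2 fold change of 0.41 (SE 0.18, edgeR adjusted p = 0.645), with 322 and 319 CPM after saline and 475 and 420 after MIA, and in CPN one of 0.64 (SE 0.25, adjusted p = 0.953). Sema6d in migrating neurons is among the genes the study listed from these same libraries, so its direction is not independent evidence.

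In the remaining 4 tests at an unadjusted p under 0.05, leaving out wild-type saline replicate 1 moved the value by over 1.5 times. Sema6d in AP measured 79.1 CPM there and 22.7 in wild-type saline replicate 2, against 27.8 and 23.6 after MIA, with a log2 fold change of -1.07 (SE 0.43, edgeR adjusted p = 0.501) that became 0.05 without that library. Sema3c in IP measured 84.2 and 30.3 CPM after saline and 35.3 and 17.3 after MIA, a log2 fold change of -1.16 (SE 0.46, adjusted p = 0.996 by edgeR) that shrank to -0.27 without it. Interneuron markers summed to 149 CPM in the AP and 183 CPM in the IP of that library, against 21.9 to 42.5 and 19.0 to 44.4 CPM in the others, and their part in these values was not tested.

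Dividing progenitors gave the other 2. Nrp1 measured 29.5 and 82.9 CPM after saline and 125 and 78.4 after MIA in wild type, with groups that overlap, and a log2 fold change of 1.24 (SE 0.50, edgeR adjusted p = 0.511). Plxna4 measured 29.5 and 8.29 CPM after saline and 88.4 and 42.2 after MIA (log2 fold change 1.46, SE 0.57, edgeR adjusted p = 0.508). Wild-type saline replicate 1 held 226 of the 728 dividing nuclei, against 47 to 102 in the other libraries, and all 11 interneuron markers were detected in them with a sum of 3073 CPM, against 12.1 to 369 CPM elsewhere. The 8.29 CPM of Plxna4 in wild-type saline replicate 2 stand for 1 UMI. Without wild-type saline replicate 1 the Nrp1 value was 0.28, and the Plxna4 comparison rested on that 1 UMI, so no fold is given. Without wild-type saline replicate 2, which leaves the library with interneuron markers as the sole wild-type saline one, Nrp1 was called (log2 fold change 1.80, edgeR adjusted p = 0.0362), beside 121 calls over all genes and classes in place of 0.

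**Figure D3:**
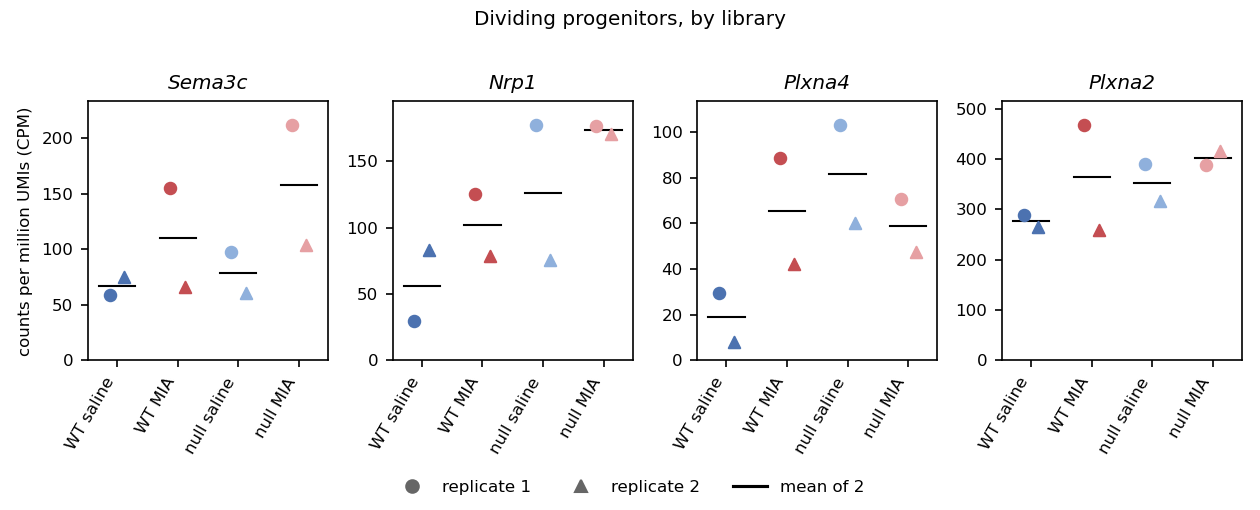
CPM of Sema3c, Nrp1, Plxna4 and Plxna2 in dividing progenitors by group (circles, replicate 1, triangles, replicate 2, bars, mean of 2). Nrp1 is lowest, at 29.5 CPM, in wild-type saline replicate 1, the library whose dividing nuclei hold 3073 CPM of interneuron markers, and is 177 CPM in Csf1r-null saline replicate 1.

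In Csf1r-null embryos, MIA against saline called 0 of 60 member tests beside 0.0% of all tests, and 0 with the block or DESeq2. The single test with an unadjusted p under 0.05 was Plxna4 in interneurons, with 27.1 and 28.5 CPM after saline and 59.4 and 40.3 after MIA (log2 fold change 0.85, SE 0.38, edgeR adjusted p = 1.00). In migrating neurons the log2 fold changes were 0.03 (SE 0.21) for Nrp2, 0.20 (SE 0.18) for Sema6d, 0.10 (SE 0.18) for Nrp1, 0.05 (SE 0.22) for Plxna2, 0.12 (SE 0.21) for Plxna4 and -0.23 (SE 0.28) for Sema3c. The median over the member tests was 0.01, as was the median of the class medians of all genes.

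The difference between these responses was tested directly by the interaction of genotype and treatment. It called 0 of 60 member tests beside 0.0% of all, 0 with the block (0.0144% of all) and 0 with DESeq2. Nrp2 in migrating neurons had an interaction of -0.63 log2 units (SE 0.30, edgeR adjusted p = 1.00). A difference of its response between genotypes was thus not called. The groups of this test include both libraries that go against their genotype labels, and no value without them is given here. Their labels differ in treatment too, so an exchange between them would change treatment as well as genotype. Whether they were exchanged was not tested. For Sema6d the interaction was -0.21 (SE 0.25). Plxna4 gave the 2 tests with an unadjusted p under 0.05, with opposite signs: -1.94 (SE 0.82) in dividing progenitors and 1.22 (SE 0.53) in interneurons. Without wild-type saline replicate 1 the latter was 0.74, and the former rested on 1 UMI of Plxna4 in wild-type saline.

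**Figure D4:**
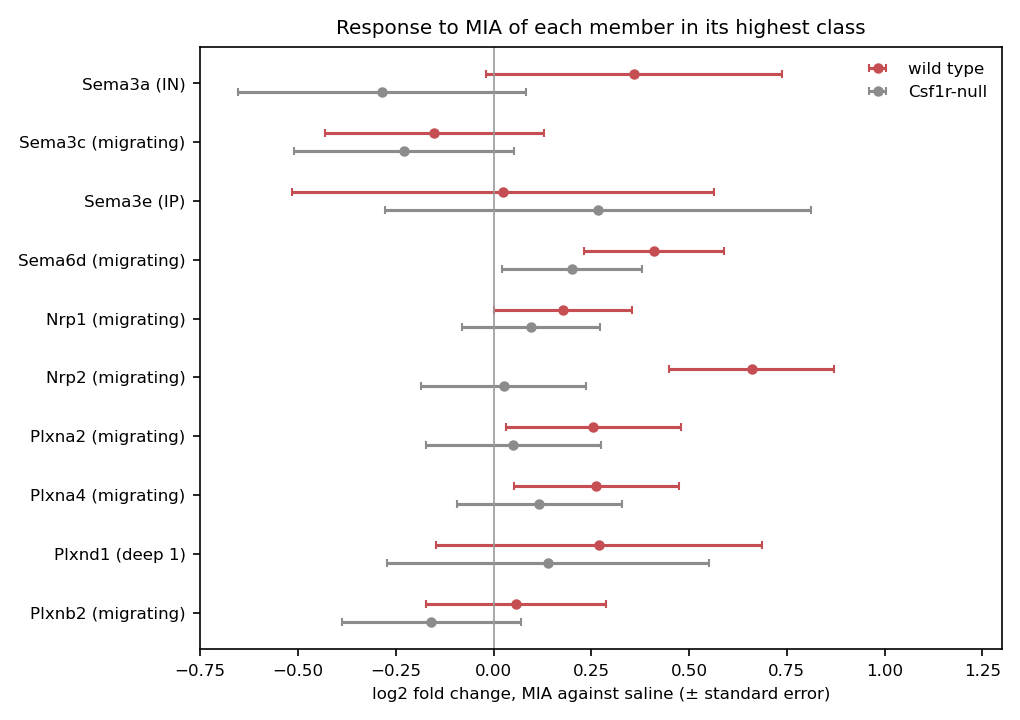
Log2 fold change after MIA against saline for each member in its highest class, with standard errors from edgeR without the replicate block (red, wild type, grey, Csf1r-null, 2 libraries a group). The Nrp2 point of wild type stands at 0.66 and that of Csf1r-null at 0.03, and none of the 20 values was called.

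Csf1r-null against wild type called 0 of 60 member tests after saline and 0 of 60 after MIA, beside 0.0% of all tests in each. The block called 0.286% and 0.00394% of all tests and 0 members, and DESeq2 0.063% and 0.0% and 0 members. After saline, the contrast shares its wild-type libraries with the MIA comparison above. The median log2 fold change of its member tests was 0.27, beside 0.001 for the median of the class medians of all genes. With the block, its smallest p was that of Nrp1 in dividing progenitors (0.000961 by edgeR). The smallest adjusted p of any member test was then 0.0755. The values that follow are without the block. Nrp1 in dividing progenitors measured 177 and 75.3 CPM in Csf1r-null and 29.5 and 82.9 in wild type (log2 fold change 1.57, SE 0.51, edgeR adjusted p = 0.547), and Plxna4 measured 103 and 60.3 against 29.5 and 8.29 CPM (1.76, SE 0.59, adjusted p = 0.555). Without wild-type saline replicate 1, whose dividing nuclei hold the interneuron markers, the Nrp1 value was 0.60, and the Plxna4 comparison again rested on 1 UMI in wild-type saline. Without wild-type saline replicate 2 Nrp1 was called (2.14, edgeR adjusted p = 0.00976), beside 93 calls over all genes and classes in place of 0, and without both libraries that go against their labels it was 1.96 (adjusted p = 0.98). After MIA the smallest p was that of Plxna4 in interneurons (0.82, SE 0.37, edgeR adjusted p = 1.00). The contrast after MIA includes the wild-type MIA library that goes against its label, and no value without it is given.

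Averaged over genotypes, MIA against saline called 0 of 60 member tests beside 0.0% of all tests. It called 0 with the block (0.0289% of all) and 0 with DESeq2 (0.0171% of all). At an unadjusted p under 0.05 there were 7 (11.7%) beside 3.75% of all, again a description, since the member tests are not independent. The groups include both libraries that go against their labels, and no value without them is given for this average. Sema3c in dividing progenitors had the smallest p, with 58.9 and 74.6 CPM in wild-type saline, 155 and 66.3 in wild-type MIA, 97.3 and 60.3 in Csf1r-null saline and 212 and 104 in Csf1r-null MIA (log2 fold change 0.92, SE 0.32, edgeR adjusted p = 0.622). The groups overlapped. Of the other 21 family genes, 17 were tested, in 104 tests, and of 36 coreceptors and cytoplasmic partners, among them L1cam, Met, the collapsin response mediators and the Mical genes, 35 in 233 tests. In all 6 comparisons 0 of either list were called, with an unadjusted p under 0.05 in 0 to 5 family and 0 to 9 partner tests.

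In sorted microglia, the members were followed in 59580 cells of microglial clusters, with 6160925 to 105751888 UMIs per library before that choice. The 12 microglial markers summed to 24670 to 70232 CPM. Between sorted libraries up to 258 barcodes were shared, 68.8% of the smaller library of that pair, and only the copy with most UMIs was kept. Calls on the members were the same with all copies kept or all dropped. Plxnb2 was well expressed throughout, with 183, 199 and 177 CPM after saline at E13, 163, 202 and 228 at E15 and 211, 221, 207 and 224 at P14. Nrp1 had 103, 85.3 and 82.7 CPM at E13, 77.1, 134 and 122 at E15 and 133, 155, 171 and 187 at P14.

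MIA against saline called 0 of 5 members at E13, at E15 and at P14, beside 0.0% of 12415, 13195 and 12931 genes. The libraries were of unlike size. At E13, replicates 1 to 3 held 267, 349 and 5505 microglial cells after MIA and 1045, 1694 and 3074 after saline. In E13 MIA replicates 1 and 2, 48.6% and 70.1% of barcodes also occurred in another sorted library. In E15 MIA replicate 1, 25.2% of cells were removed as not microglial. The part of these differences in the missing calls was not tested. With few libraries a group, changes of 2-fold can be missed here too. DESeq2 called 0 members and 0.0161%, 0.00758% and 0.0155% of genes, and a fit with the replicate block 0 members and 0.0322%, 0.0% and 0.0236%. At P14 the fit with the block left out saline replicates 3F and 3M, whose numbers no MIA library shares, and tested 12711 genes. The difference of the response between E15 and E13 was called for 0 of 5 members, beside 0.0% of 13516 genes. Nrp1 at P14 was the 1 member with an unadjusted p under 0.05: after MIA it measured 130 and 107 CPM, below each of the 4 saline values, with a log2 fold change of -0.41 (SE 0.13, edgeR adjusted p = 0.927). At E13 and E15 the Nrp1 values were 0.02 (SE 0.12) and 0.04 (SE 0.25).

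Age had larger effects after saline. From E13 to E15, 26.8% of 13463 genes were called, 15.0% as higher and 11.8% as lower, and 1 of 5 members was called. With DESeq2, 29.8% of genes and 2 members were called. Plxnd1 fell from 13.01, 8.52 and 8.26 CPM to 5.54, 4.89 and 5.50 CPM, without overlap, a log2 fold change of -0.87 (SE 0.21, edgeR adjusted p = 0.0111). Plxna4 measured 7.55, 4.31 and 4.39 CPM at E13 and 5.10, 10.3 and 12.45 at E15 (0.80, SE 0.28, edgeR adjusted p = 0.0522), and its groups overlapped. That value lay close to the threshold: DESeq2 called Plxna4 (adjusted p = 0.0205), and so did edgeR with no filter on low counts, without E13 saline replicate 1 and without E15 saline replicate 1. Nrp1 (0.32, SE 0.18), Plxna2 (0.52, SE 0.40) and Plxnb2 (0.10, SE 0.12) were not called. Without E15 saline replicate 1, the library with the most neuronal marker RNA of the saline ones, Nrp1 was called (0.51, edgeR adjusted p = 0.00697), as were 5836 genes in place of 3610.

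From E15 to P14, 53.8% of genes were called, 26.4% higher and 27.4% lower, and 3 of 5 members. With DESeq2 (54.2% of genes) it was also 3 of 5. Plxna4 rose from the E15 values above to 50.8, 55.0, 54.4 and 56.7 CPM, a log2 fold change of 2.32 (SE 0.27, edgeR adjusted p = 2.92e-05), with all P14 libraries above all embryonic ones. Plxnd1 fell further, to 0.742, 0.863, 0.547 and 0.528 CPM (log2 fold change -3.23, SE 0.23, edgeR adjusted p = 9.55e-07). Plxna2 was scarce at every age and fell from 3.06, 1.97 and 1.88 CPM to 1.09, 0.740, 0.410 and 0.453 CPM (-2.03, SE 0.39, edgeR adjusted p = 0.00118). Nrp1 (0.29, SE 0.17) and Plxnb2 (-0.11, SE 0.11) were not called. The Plxnb2 fold change was below 0 after TMM scaling, while its mean CPM was 197 at E15 and 216 at P14. Nrp1 was called without E15 saline replicate 2 (0.46, edgeR adjusted p = 0.0472). In the same libraries the 6 neuronal markers summed to 19.9 to 27.6 CPM at E13, 58.2 to 171 at E15 and 5.34 to 14.1 at P14. Plxna2 averaged 579 CPM in migrating neurons and fell as these markers fell. Plxna4, also a gene of those neurons, was higher at E15 than at E13 by group mean, as the markers were. It rose from E15 to P14, where the markers fell. By library, saline replicates 1 to 3 had marker sums of 27.6, 19.9 and 25.4 CPM at E13 and 171, 74.9 and 58.2 at E15. Their Plxna4 values were 7.55, 4.31 and 4.39 CPM at E13 and 5.10, 10.3 and 12.45 at E15. The part of neuronal RNA in the Plxna2 and Plxna4 values was not tested. The 3 calls held in all alternatives run, including those without the Ms4a7-type clusters, which held 0.39% to 6.87% of saline microglia in the embryo and 0.0% at P14.

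**Figure D5:**
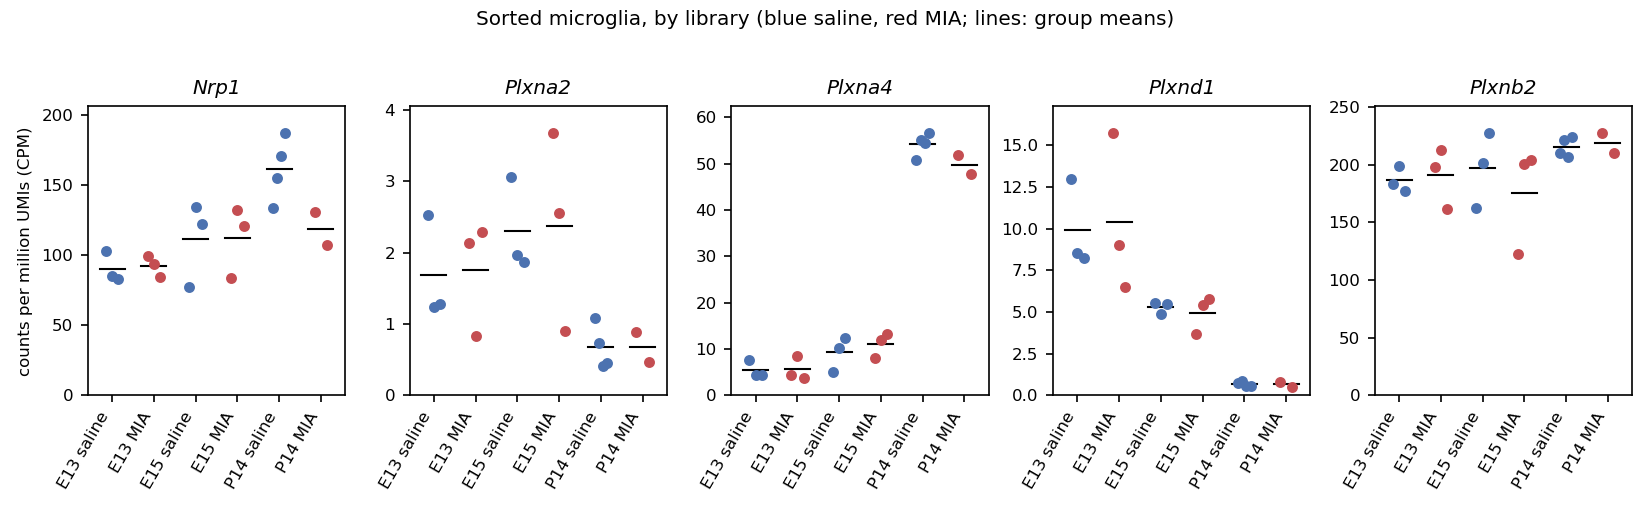
CPM of Nrp1 and the 4 plexins in each library of sorted microglia by age and treatment (blue, saline, red, MIA, bars, group means). Plxna4 stands at 50.8 to 56.7 CPM in the 4 saline libraries at P14 against 5.10 to 12.45 at E15, Plxnd1 falls with age, and Plxnb2 stays between 122 and 228 CPM.

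MIA called 0 genes of either list in sorted microglia at any age. Of the other family genes, 14 were tested across age. From E13 to E15, 3 (21.4%) were called beside the 26.8% of all genes: Sema6a (2.54) and Sema4g (0.89) higher and Plxnc1 (-0.88) lower on the log2 scale. Sema6a was near the floor, with 0 to 0.76 CPM in sorted microglia, against a mean of 114 CPM in interneuron nuclei. Like the neuronal markers, it was higher at E15 than at E13, and the part of neuronal RNA in it was not tested. From E15 to P14, 7 (50.0%) were called beside 53.8%: Sema4b (1.31), Sema4g (1.25), Plxna1 (0.78) and Sema4d (0.58) higher and Plxnc1 (-3.12), Sema4a (-1.89) and Sema6b (-1.68) lower. Both shares were near that of all genes. Sema4d, a class 4 ligand of B-type plexins, was the most abundant of these, with 48.8 to 136 CPM, followed by Sema4c with 33.3 to 62.4, Sema4b with 14.4 to 69.0 and Sema4g with 3.64 to 23.8 CPM. The shares of the partner list were also near those of all genes, 26.8% and 53.8%. Of the partner list, 9 of 34 (26.5%) were called from E13 to E15 and 19 of 34 (55.9%) from E15 to P14. Among the former, Dpysl3 (2.23), Crmp1 (2.00), Chl1 (1.98), Dpysl5 (1.79) and Cntn2 (1.06), genes of growing neurites, were higher at E15 and each was lower at P14 (Dpysl3 by a log2 fold change of -5.37), in the same direction as the neuronal markers given above, whose part was not tested. Cdk5r1 (0.62) and Gsk3b (0.41) rose and Mical2 (-0.89) and Mical1 (-0.47) fell from E13 to E15. From E15 to P14, Mical3 (1.87), Cdk5r1 (1.62), Arhgef12 (1.28), Limk1 (0.42), Pak1 (0.35) and Gsk3b (0.33) rose, and Rnd3 (-4.17), Crmp1 (-3.72), Cntn2 (-3.23), Chl1 (-2.60), Dpysl5 (-2.57), Gipc1 (-1.33), L1cam (-1.30), Met (-1.30), Mical1 (-1.03), Fyn (-0.71), Rras (-0.63) and Rhoa (-0.51) fell.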

How the data were processed

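The deposited matrices hold UMI counts for each gene in each barcode. The authors aligned to mm10 with Cell Ranger. The file headers of nuclei replicate 2 name version 6.0.1. The processing notes name 3.1.0, which was taken for microglia and nuclei replicate 1, whose headers do not name 6.0.1. The paper's methods name 6.0.1 for nuclei and another version for microglia. On this reading, replicate number and software version cannot be told apart in nuclei. Filters asked for 500 UMIs and 200 genes in a nucleus, and for 500 genes and no more than 20% mitochondrial UMIs in a sorted cell. Scrublet doublets were removed. Clusters (Leiden, scanpy 1.11.5) were built and named without semaphorin, neuropilin or plexin genes. UMIs summed per library and class were tested with edgeR 4.0.16 (quasi-likelihood, TMM, Benjamini-Hochberg within a class, threshold 0.05), and with DESeq2 1.42.0 as an alternative. Levels are CPM, on the log2(CPM + 1) scale between classes. Same-numbered libraries deviated together in nuclei (r 0.172 to 0.568), E15 microglia (0.141 to 0.631) and the 2 pairs of P14 microglia (0.112 to 0.367). They did not in each E13 pair (0.00995 to 0.418). Values not marked as with the block come from fits without a term for replicate number. Where a barcode occurred in several sorted libraries, the copy with most UMIs was kept. Values are given for every library in each member's highest class and wherever a member was called. Scripts were tested on simulated data. The members and lists were chosen with earlier results of these data known.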

Additional observations from a re-analysis of the deposited data

Results flagged for a closer look

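The 3 values that follow lie outside the tests above. Plxnd1 averaged 184 CPM in Cajal-Retzius cells, a class of 136 nuclei that was too small for the tests, against a highest mean of 13.6 CPM in the classes tested. In sorted microglia, where Sema6d and Nrp2 were not among the genes followed, Sema6d averaged 22.7 CPM and Nrp2 44.3 CPM in the P14 saline libraries. Both were looked at after their values were seen. Sema6d measured 21.8, 25.0, 20.4 and 23.6 CPM in these 4 libraries and 1.58, 2.40 and 1.82 CPM at E15, with a mean there of 1.93 CPM, a log2 fold change of 3.33 (SE 0.24, edgeR adjusted p = 1.18e-06), and Nrp2 averaged 45.9 CPM at E15 (-0.28, SE 0.22, edgeR adjusted p = 0.301).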

How the results depend on the processing

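Of 857 alternative values of 51 single fold changes, 825 kept their direction and their side of the threshold, 8 passed it newly and 24 turned direction. With 2 libraries a group in nuclei, and few in sorted microglia, changes of a moderate size, 2-fold ones included, can also be missed in both. In nuclei, Sema3e, Plxnd1 and Nrp2 are further limited by their UMIs. Where leaving out a library leaves a group with 1, that library is assumed to vary like the others. In nuclei, 0 members were called in wild type after MIA and between genotypes after saline, and 0 to 1 when each library was left out (1 without wild-type saline replicate 2, Nrp1 in dividing progenitors). The replicate block called 0 members in every nuclei comparison, 1 of 5 from E13 to E15 and 3 of 5 from E15 to P14, and changed no call of a member; of all genes it called 2140 in place of 3610 from E13 to E15 and 4723 in place of 7238 from E15 to P14. From E13 to E15, 1 member was called, 2 with DESeq2, 2 with no filter on low counts, and 1 to 3 when each library was left out (2 without E13 saline replicate 1 and 3 without E15 saline replicate 1, where 2695 and 5836 of all genes were called). Of neighbouring classes, 23 pairs differed, 0 without both libraries that go against their labels, and 0 to 28 when each library was left out (0 without wild-type saline replicate 2 or Csf1r-null saline replicate 1), 24 with nuclei of at least 1000 UMIs, 29 of 50 at Leiden resolution 0.5 and 16 without centring. Fewer libraries raise the smallest possible p of the sign-flip test. Pairs at that smallest p had an adjusted p of 0.0521 without wild-type saline replicate 2 and without Csf1r-null saline replicate 1. Without both libraries that go against their labels it was 0.0875.

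Of the log2 fold changes after MIA that turned direction, 0 were called. Without both libraries that go against their labels, those in Csf1r-null were -0.0049 for Nrp2 and -0.0481 for Plxna2 in migrating neurons, and that in wild type was -0.16 for Sema3e in IP. With nuclei of at least 1000 UMIs, Nrp2 was -0.0572 and Sema3e -0.0119, at resolution 0.5 Sema3e was -0.31, and without centring Nrp2 was -0.0309. Leaving out each library gave, in Csf1r-null migrating neurons, -0.0153 to 0.1791 for Nrp1, -0.18 to 0.19 for Nrp2, -0.0933 to 0.1619 for Plxna2, -0.0744 to 0.2661 for Plxna4 and -0.58 to 0.14 for Plxnb2. It gave -0.78 to 0.57 for Plxnd1 in deep-layer cluster 1, -0.61 to 0.18 for Sema3a in interneurons and -0.57 to 0.78 for Sema3e in IP of Csf1r-null. In wild type it gave -0.0124 to 0.5009 for Plxna2 and -0.52 to 0.37 for Sema3c in migrating neurons, -0.29 to 1.17 for Sema3a in interneurons, -0.17 to 0.20 for Sema3e in IP and -1.65 to 0.05 for Sema6d in AP. In P14 microglia it gave -0.0299 to 0.1148 for Plxnb2. The causes were not tested.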
